A study of Mus musculus with 12 samples.

Results

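Histone cluster genes are the genes of the canonical histones H1, H2A, H2B, H3 and H4, which lie close together in the mouse genome and carry symbols that begin with Hist1h, Hist2h, Hist3h or Hist4h. Their reads were followed here in polyadenylated RNA of the mouse retina. The count table lists 69 such genes among 35976, and the 29 with at least 10 reads summed over all 12 libraries were taken as members. Of the other 40, 21 had 1 to 9 reads and 19 had 0. The rule used only the total over all libraries and no comparison between groups. The total was not scaled for depth, so deeper libraries weighed more and a gene could pass on the reads of few libraries. At its edge, Hist1h2ad, Hist1h2ai, Hist1h2bk and Hist2h3b had 10 reads each and were members, and Hist1h3c and Hist1h3e, with 8 reads each, were not.

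Canonical histone messages are unusual among messenger RNAs. They are made mainly in S phase, when new DNA has to be packed into nucleosomes, and they normally end in a short stem-loop bound by the stem-loop binding protein SLBP instead of a poly(A) tail. Some of these genes also yield polyadenylated transcripts that extend past the stem-loop, mainly in cells that have left the cell cycle. The libraries were primed on poly(A), so they are meant to report on this second kind of transcript. They do not measure the amount of the histone messages that end at the stem-loop. Where reads lie within a transcript was not examined, so reads primed at runs of A inside a message cannot be told apart.

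The study sequenced retinas of C57BL/6 mice, called WT, and of Caspase1 knockout mice, called Casp1 KO, in normoxia and in oxygen-induced retinopathy (OIR), with 3 libraries in each of the 4 groups. The WT OIR pups were kept in 75% oxygen from postnatal day 7 to 12 and then in room air (21% oxygen), which leaves the retina in relative hypoxia, and WT retinas were taken at postnatal day 15. All OIR libraries are labelled 3 days post OIR. The sources used here do not give the age and oxygen level of the Casp1 KO pups, the knockout allele or the knockout's background strain. The number of animals behind a library is not given either, so p-values rest on differences between these libraries, which may be technical. In the main edgeR fits the spread came from a trend over all genes, not from each gene alone. Reads of Casp1 went against the labels: 0 to 3 were counted in each of the 6 libraries labelled WT (7 in all) and 10 to 45 in each of the 6 labelled Casp1 KO (126 in all). The part of the gene that the knockout removes is not stated, and the reads come from the 3′ end of transcripts, so the count does not check the deletion. Directions between genotypes are therefore given for libraries as labelled.

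Total counts ran from 3391203 to 22815830 per library. WT normoxia replicate 2 was 4.03 times as deep as the next library, and WT OIR replicate 3 stood apart from its group, where the chi-square of its counts against the other WT OIR libraries came to 15.2 and 14.2 per degree of freedom, against 3.49 to 9.46 for all other pairs within a group. The 6 rod markers were abundant in every library, at a summed level of 34145 to 42001 CPM, the count after division by library size. Cell type markers and nuclear transcripts differed between groups, and their values are given beside the results they move with. In bulk retina, fewer cells of a type and less RNA per cell cannot be told apart.

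The member reads numbered 45995 and made up 0.0474% to 0.0911% of the reads of a library. They were very unevenly spread over the classes. The 5 H1 members, linker histones that bind the DNA between nucleosomes, held 30144 reads or 65.5% of the total, and the 7 H2B members held 12561 or 27.3%. The 8 H4 members held 2252 reads, the 7 H2A members 1013, and the 2 H3 members only 25, although H2A, H2B, H3 and H4 enter the nucleosome core in equal numbers. Hist1h1e alone took 52.8% to 66.9% of the member reads in a library.

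The few genes that carried the reads were those with a long annotated transcript end. In the GENCODE vM21 annotation, the 5 members with the most reads had 742 to 2192 annotated bases after the stop codon, with a median of 880, and the other members with an annotated stop codon had a median of 90. Those 5 genes, Hist1h1e with 26568 reads, Hist1h2bc with 11266, Hist1h1c with 3166, Hist1h4d with 1299 and Hist2h2be with 876, were also the only members with at least 10 reads in every library. A long end did not by itself go with many reads: Hist1h1d, with 4931 bases after its stop codon, had 123 reads, and Hist4h4, with 2515, had 30. Which annotation the authors counted on is not given in the sources used here, and a gene model that stops at the stem-loop would not collect reads beyond it.

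**Figure D1:**
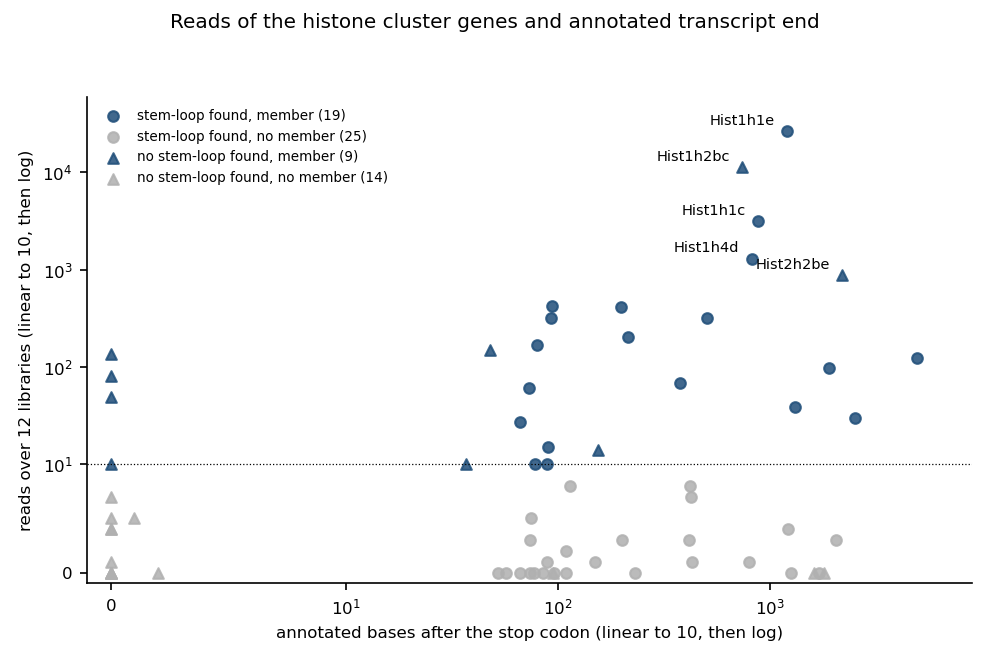
Reads summed over 12 libraries (vertical axis) against the annotated bases after the stop codon (horizontal axis) for the 67 of 69 histone cluster genes with an annotated stop codon; both axes are linear to 10 and logarithmic above. Circles mark genes with the stem-loop and triangles genes in which it was not found, 13 of them with 0 annotated bases to search. Members are blue, and the dotted line is the minimum of 10 reads. The 5 labelled genes with the most reads all have at least 742 bases after the stop codon.

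The stem-loop was searched in the 100 bases after the stop codon as a 6-base arm that begins with GG and ends with T, a loop TTNN, and an arm that is the reverse complement of the first. It was found in 44 of the 69 histone genes and in 19 of the 29 members, against 3 of 21046 other genes (0.0143%), among them the histone genes H2afx and H2bfm. The other genes all had at least 16 annotated bases after a stop codon. By contrast, 13 of the 69 histone genes, 4 of them members, had 0 such bases and could not show a stem-loop. Nor could histone genes without an annotated stop codon be searched. Of the 5 leading members, Hist1h1e, Hist1h1c and Hist1h4d had it, and it was not found in the annotated transcripts of Hist1h2bc and Hist2h2be. Only annotated transcripts and exact arms were searched, so a stem-loop in bases spliced out, or with a mismatch, would be missed. The sequences are given 5′ to 3′ with 5 bases on each side, from the GENCODE transcripts on GRCm38 (mm10), with the stem-loop in capitals, since they are where the usual histone message would end.
Hist1h1e, chr13:23621777-23621802, minus strand: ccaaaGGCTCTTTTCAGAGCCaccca
Hist1h1c, chr13:23739507-23739532, plus strand: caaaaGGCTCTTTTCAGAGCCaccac
Hist1h4d, chr13:23581945-23581970, plus strand: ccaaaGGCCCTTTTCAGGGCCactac
Hist2h2ac, chr3:96220413-96220438, minus strand: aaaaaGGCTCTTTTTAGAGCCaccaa
Hist1h2ae, chr13:23570663-23570688, minus strand: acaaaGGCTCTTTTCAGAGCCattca
Hist1h4h, chr13:23531453-23531478, plus strand: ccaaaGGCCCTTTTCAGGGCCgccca
The H1 and H2A genes shown shared the arm that begins GGCTC, and the H4 genes the arm that begins GGCCC.

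Both annotations place the gene ends differently. The RefSeq gene (GRCm38.p6) ended within 10 bases after the stem-loop in 18 of the 19 members that have it, and the GENCODE gene in 0 of 19. For Hist1h1e, a single-exon gene at chr13:23620629-23622558 on the minus strand, RefSeq ended 5 bases after the stem-loop and GENCODE 1153 bases after it, without an AATAAA, the usual signal for cleavage and polyadenylation, in between. For Hist1h1c (chr13:23738808-23740367, plus strand) the 2 ends lay 4 and 840 bases after the stem-loop, and the GENCODE transcript carried an AATAAA 26 bases before its end. Hist1h2bc (chr13:23684199-23692908, plus strand) has 2 exons in GENCODE and an AATAAA 447 bases before its annotated end. The signals of Hist1h1c and Hist1h2bc are shown in capitals with the bases around them.
Hist1h1c, chr13:23740338-23740367, plus strand: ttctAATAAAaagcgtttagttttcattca
Hist1h2bc, chr13:23692458-23692487, plus strand: atatAATAAAtgtcatgtaaagcaaaaaaa

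Of the members, 22 lie on chromosome 13, where most of the histone genes are clustered, 5 on chromosome 3, and 1 each on chromosomes 6 and 11. Among the 22, the H2A member Hist1h2al is annotated as a processed pseudogene and lies outside the cluster, at chr13:51202727-51203065. The annotated end of Hist1h1e is overlapped on the same strand by Hist1h2be and Gm11398, so reads could be shared or dropped there and its count is uncertain. In all, 3 members are overlapped on the same strand and 9 on the other, among them every H2A member. The strand setting of the counting is not given in the sources used here, so those H2A reads cannot be assigned to a strand. Members are also close copies of each other in their coding part, and how reads that match several copies were handled is not given.

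RefSeq promoters were matched by symbol or synonym for 24 of the 29 members. The entries for Hist1h2bc, Hist2h2be, Hist1h2al, Hist2h4 and Hist1h3a are missing. In the 250 bases before the transcription start, searched on both strands, the H1 box AAACACA stood in 4 of the 5 H1 members and in 1 of 19 other members, against 6.25% of 32851 promoters of all genes. CCAAT stood in 20 of the 24, against 33.8% of all promoters, and TATAAA in 14 of the 24, against 12.4%. No motif found here overlaps another in the promoters of Hist1h1e and Hist1h1c, which are shown with the motifs in capitals because both genes were lower in Casp1 KO OIR than in WT OIR .
Hist1h1e, GRCm38.p6 chr13:23622559-23622808, minus strand: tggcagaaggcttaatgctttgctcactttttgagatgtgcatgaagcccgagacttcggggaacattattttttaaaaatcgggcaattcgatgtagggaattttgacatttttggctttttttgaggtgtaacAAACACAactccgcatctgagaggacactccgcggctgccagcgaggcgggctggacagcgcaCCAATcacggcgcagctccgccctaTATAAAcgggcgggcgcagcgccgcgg
Hist1h1c, GRCm38.p6 chr13:23738557-23738806, plus strand: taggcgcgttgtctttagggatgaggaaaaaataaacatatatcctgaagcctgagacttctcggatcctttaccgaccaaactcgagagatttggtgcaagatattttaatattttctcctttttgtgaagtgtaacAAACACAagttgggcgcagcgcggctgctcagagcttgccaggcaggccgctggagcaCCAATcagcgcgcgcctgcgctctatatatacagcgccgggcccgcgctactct
The H1 box lay 115 bases before the start in Hist1h1e and 112 in Hist1h1c, and the CCAAT 52 and 54 bases before it. These letters are a description of the sequence and say nothing of which factor was bound.

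Levels are given as CPM scaled by TMM over the 12 libraries. A 3′ library yields reads from the transcript end whatever the length of the transcript, so CPM was not divided by length. The level of Hist1h1e was 371, 318 and 346 CPM in WT normoxia, 559, 370 and 569 in WT OIR, 358, 326 and 302 in Casp1 KO normoxia, and 310, 251 and 297 in Casp1 KO OIR. In WT OIR, replicates 1 and 3 were above every other library, and replicate 2 lay at the level of the highest WT normoxia library. Every Casp1 KO OIR library was below every WT library in either condition. Hist1h1e encodes the linker histone H1.4.

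Hist1h2bc, which encodes an H2B of the nucleosome core, was at 154, 153 and 133 CPM in WT normoxia, 157, 170 and 222 in WT OIR, 113, 118 and 108 in Casp1 KO normoxia, and 137, 150 and 164 in Casp1 KO OIR. The OIR libraries were above the normoxia libraries of the same genotype, without overlap in both genotypes. Hist1h1c, the linker histone H1.2, was at 50.1, 41.4 and 39.6 CPM in WT normoxia, 48.0, 49.2 and 63.1 in WT OIR, 39.7, 40.1 and 39.6 in Casp1 KO normoxia, and 40.7, 24.5 and 30.2 in Casp1 KO OIR. Of the 4 comparisons of 2 groups, it did not overlap only between the genotypes in OIR.

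Hist1h4d, an H4 of the nucleosome core, was at 21.3, 21.8 and 19.1 CPM in WT normoxia, 22.04, 14.5 and 19.99 in WT OIR, 12.8, 8.71 and 12.3 in Casp1 KO normoxia, and 10.9, 11.2 and 14.6 in Casp1 KO OIR. Its normoxia groups did not overlap, and the highest library labelled Casp1 KO reached the lowest WT OIR library. Hist2h2be, a further H2B gene, lay between 9.12 and 16.8 CPM over the 12 libraries, with group means from 10.5 to 12.1, and no pair of groups separated.

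**Figure D2:**
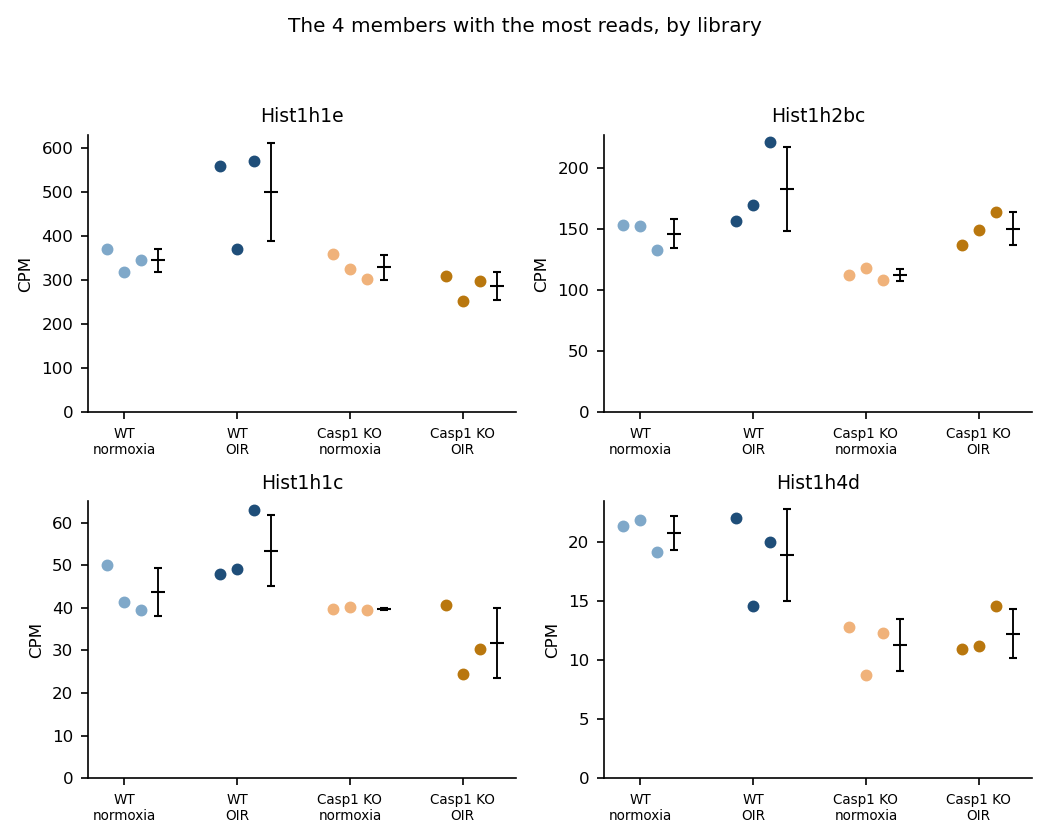
CPM of the 4 members with the most reads, 1 point per library, in the 4 groups of 3 libraries; the black dash and bar to the right of the points are the mean and SD. Hist1h1e reached 559 and 569 CPM in 2 WT OIR libraries. Hist1h2bc was higher in OIR than in normoxia within each genotype, but its change passed edgeR's test (adjusted p under 0.05) only in Casp1 KO.

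The other 24 members were at low levels. Hist1h2ae, the H2A member with the highest level, had group means of 4.93 ± 0.516 (SD, n = 3) CPM in WT normoxia, 8.29 ± 2.73 in WT OIR, 5.06 ± 2.17 in Casp1 KO normoxia and 4.48 ± 3.06 in Casp1 KO OIR. Hist2h2ac, also an H2A, lay between 2.03 and 8.68 CPM and Hist1h4h, an H4, between 0.921 and 6.27. Hist1h3a, the H3 member with the most reads, had 1 read in all WT normoxia libraries, 1 in WT OIR, 7 in Casp1 KO normoxia and 6 in Casp1 KO OIR. A count of 0 allows up to 3 counts, or 0.131 to 0.885 CPM depending on the library, so levels of the H3 members were at this limit and their differences are not interpretable at this depth; these limits cover counting error only. In all, 17 members were at 0 in at least 1 library and 15 had under 100 reads. Some passed the rule on few libraries: the 10 reads of Hist2h3b all came from OIR libraries. Of the 27 reads of Hist1h2bb, 16 came from WT normoxia replicate 2. Counts of members above 0 in the tests include such genes.

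Summed over a class, the levels kept the order H1, H2B, H4, H2A, H3 in every library. H1 members took 59.0% to 73.4% of the member reads of a library, H2B members 20.3% to 35.0%, H4 members 3.47% to 6.39%, H2A members 1.29% to 2.93% and H3 members at most 0.276%. The sum of the H4 members varied little within 3 of the groups. It was 37.2 ± 0.513 CPM in WT normoxia, 30.98 ± 8.05 in WT OIR, 20.1 ± 0.55 in Casp1 KO normoxia and 21.5 ± 0.66 in Casp1 KO OIR (mean ± SD, n = 3 each), and the 6 libraries labelled Casp1 KO, at 19.5 to 22.2, were all below the 6 labelled WT, at 22.6 to 38.7. Hist1h4d was the largest part of the H4 reads, 1299 of 2252.

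**Figure D3:**
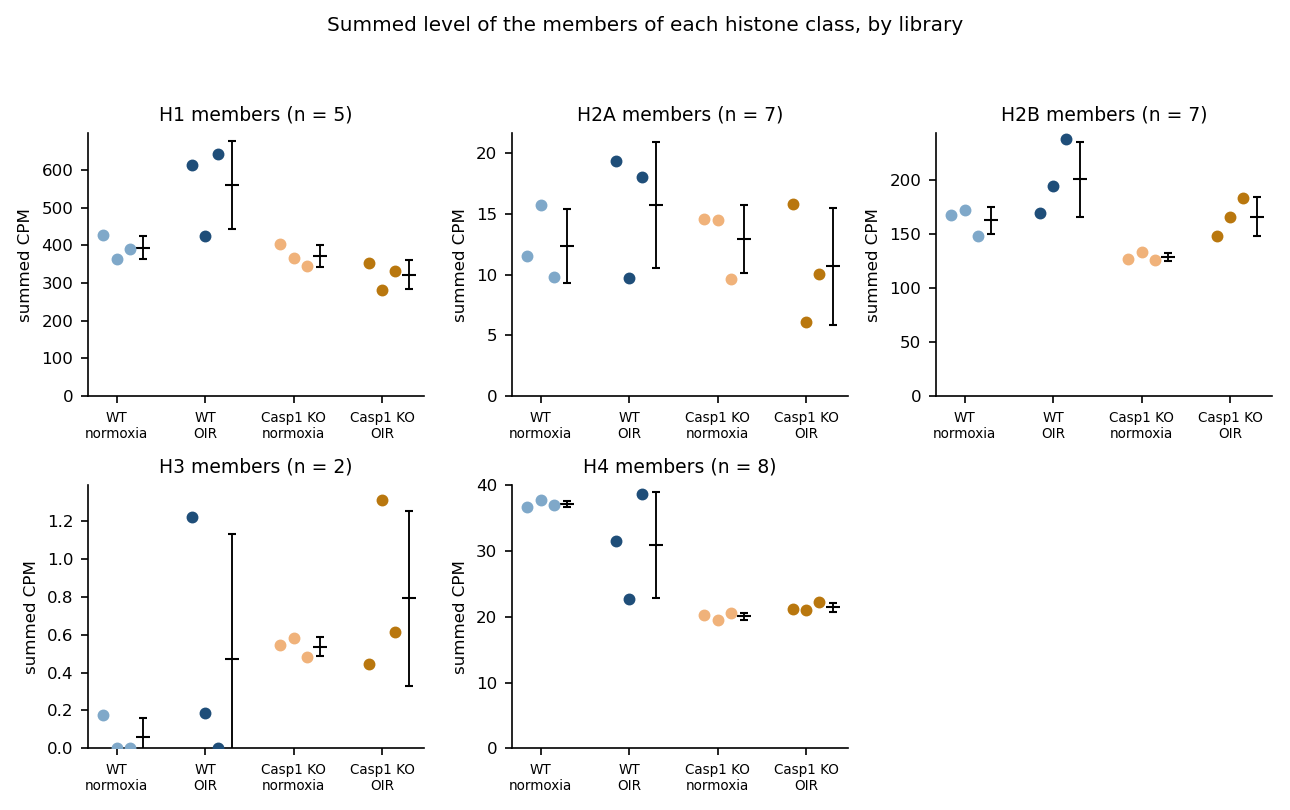
Summed CPM of the members of each class, 1 point per library in the 4 groups of 3 libraries, with the mean and SD as black dash and bar; SD bars of the H3 panel are cut at 0. The H4 sum was 36.8 to 37.7 CPM in WT normoxia and 19.5 to 20.5 in Casp1 KO normoxia.

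The first comparison asks what OIR did to these transcripts in WT retina. Hist1h1e rose from 345 ± 26.4 to 499 ± 112 CPM (SD, n = 3), a 1.44-fold increase. Its log2 fold change was 0.52 with a standard error (SE) of 0.12, and its adjusted p by edgeR's quasi-likelihood test was 0.00135. It was the single member called of 29 (3.45%), where 3.88% of all genes tested were called. The groups of Hist1h1e overlapped by less than 1 CPM. Its log2 fold change was 0.42 (adjusted p = 0.000832 by edgeR) without WT OIR replicate 3 and 0.47 (adjusted p = 0.0537) without WT normoxia replicate 2, the deepest library. After filtering with filterByExpr the log2 fold change of Hist1h1e was 0.54, with an adjusted p of 0.0422 by edgeR.

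Other members of the WT comparison did not pass the test. Hist1h2bc had a log2 fold change of 0.31 (SE 0.14, adjusted p = 0.266 by edgeR) and 0.15 without WT OIR replicate 3, and Hist1h1c one of 0.28 (SE 0.18, adjusted p = 0.54). Of the 29 members, 17 had a fitted change above 0, against 52.8% of all genes, and 4 had groups that did not overlap, against 16.7% of all genes. The median log2 fold change of members was 0.29, and that of all genes 0.04, but the median over the 14 members with at least 100 reads was -0.01. Cycling-cell genes moved with this comparison: 2 of 7 were called higher in WT OIR, and their summed level was 6.96 to 12.02 CPM in WT normoxia and 14.5 to 51.9 in WT OIR, with WT OIR replicate 3 the lowest of its group. Red blood cell markers were called higher for 4 of 5, with sums of 277, 397 and 90.9 CPM in WT OIR against 121 to 146 in WT normoxia, so that WT OIR replicate 3 lay below every WT normoxia library. The microglia sum was 47.1 to 64.3 CPM in WT normoxia and 71.5 to 88.1 in WT OIR (1 of 6 called higher), and the endothelium sum 92.4 to 109 and 112 to 171 CPM (1 of 6 called higher). Of nuclear transcripts, 1 of 6 was called higher. DESeq2 called 2 red blood cell markers and 0 endothelium markers in this comparison. Oligodendrocyte markers were called lower for 4 of 5, with a summed level of 191 to 241 CPM in WT normoxia and 32.4 to 39.9 in WT OIR. Their part in the result was not tested.

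In the libraries labelled Casp1 KO, OIR was followed by a rise of Hist1h2bc. It went from 113 ± 4.89 to 150 ± 13.6 CPM, 1.35-fold, with a log2 fold change of 0.43 (SE 0.11, adjusted p = 0.00408 by edgeR), and the groups did not overlap. It was again the single member called of 29 (3.45%), against 4.64% of all genes. Without Casp1 KO OIR replicate 3 its log2 fold change was 0.35 and its adjusted p by edgeR 0.0857. The linker histones had values of the other sign that did not pass the test, with a log2 fold change of -0.19 (SE 0.09, adjusted p = 0.267) for Hist1h1e and -0.31 (SE 0.19, adjusted p = 0.486) for Hist1h1c. In total, 15 of 29 members had a fitted change above 0, against 49.8% of all genes, and the median was 0.06 against -0.002 over all genes. Only Hist1h2bc had groups that did not overlap, against 17.1% of all genes.

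Several marker lists moved with this comparison. Lens markers were called higher for 4 of 6, with summed levels of 467 to 488 CPM in Casp1 KO normoxia and 826 to 936 in Casp1 KO OIR, and markers of the retinal pigment epithelium for 3 of 5, at 685 to 719 and 1035 to 1104 CPM. Transcripts kept in the nucleus, such as Malat1, were called lower for 4 of 6, at 10897 to 11939 and 6726 to 7499 CPM. All markers of these lists had reads. Of the cycling-cell genes, 1 of 7 was called higher, with summed levels of 6.68 to 12.9 and 17.5 to 27.8 CPM. Of the microglia markers, 1 of 6 was called higher, with summed levels of 42.1 to 55.8 and 73.4 to 95.04 CPM. Their part in the values of the members was not tested.

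OIR called Hist1h1e in WT and Hist1h2bc in Casp1 KO, which by itself does not show that either change differed between the genotypes. The ratio of their reads within a library does not depend on the scaling between libraries. It was 2.42, 2.08 and 2.60 in WT normoxia, 3.56, 2.18 and 2.56 in WT OIR, 3.18, 2.76 and 2.79 in Casp1 KO normoxia, and 2.26, 1.68 and 1.81 in Casp1 KO OIR. The ratio was lower in each Casp1 KO OIR library than in any Casp1 KO normoxia library, and the WT groups overlapped. The ratio of Hist1h1e to Hist1h1c, both linker histones, was 7.40 to 8.73 in WT normoxia, 7.53 to 11.6 in WT OIR, 7.63 to 9.01 in Casp1 KO normoxia and 7.61 to 10.2 in Casp1 KO OIR, and all groups overlapped. These ratios were chosen after the values were seen and were not tested.

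**Figure D4:**
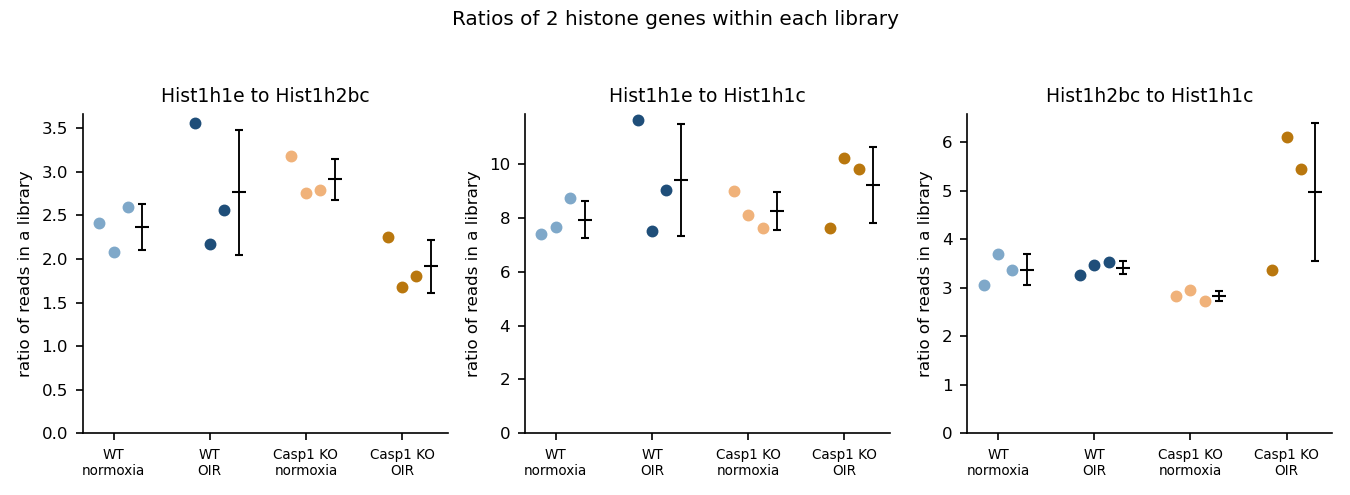
Ratios of reads of 2 histone genes within each library, 1 point per library in the 4 groups of 3 libraries, with the mean and SD as black dash and bar. The ratio of Hist1h1e to Hist1h2bc was 2.76 to 3.18 in Casp1 KO normoxia and 1.68 to 2.26 in Casp1 KO OIR.

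The test of the difference itself, the interaction of OIR and genotype over all 12 libraries, called Hist1h1e. Its change in OIR was lower in the libraries labelled Casp1 KO than in WT by a log2 difference of -0.74 (SE 0.15, adjusted p = 0.000426 by edgeR). It was 1 of 29 members called, against 1.13% of all genes, and 9 of 29 had a fitted difference above 0, against 47.6% of all genes. Leaving out each library in turn gave -0.91 to -0.63, with adjusted p from 5.02e-06 to 0.0103 by edgeR, and -0.63 (adjusted p = 0.000216) without WT OIR replicate 3. Hist1h1c had a difference of -0.62 (SE 0.26, adjusted p = 0.349) and Hist1h2bc one of 0.09 (SE 0.18, adjusted p = 0.9998). Nuclear transcripts moved with this result. They were called lower for 4 of 6 in the same test, and their summed level was 9859 to 10363 CPM in WT normoxia and 12135, 13544 and 5962 in WT OIR, and 10897 to 11939 and 6726 to 7499 in the Casp1 KO groups. Replicate 3 was the WT OIR library highest in Hist1h1e and lowest in nuclear transcripts. In the same test, 4 of 6 lens, 2 of 5 retinal pigment epithelium and 4 of 5 oligodendrocyte markers were called higher and 2 of 5 red blood cell markers lower. DESeq2 called 1 nuclear transcript lower, 2 lens, 2 retinal pigment epithelium and 3 oligodendrocyte markers higher, and 0 red blood cell markers. Their part in the result was not tested.

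With the libraries of the 2 genotypes fitted together, Hist1h2bc was higher in OIR by a log2 fold change of 0.37 (SE 0.09, adjusted p = 0.00399 by edgeR), 1.29-fold. It was 1 of 29 members called, against 4.89% of all genes, and 18 of 29 had a fitted change above 0, against 51.9% of all genes. Hist1h2bc was called under every alternative and without each of the 12 libraries. Hist1h1e had a value of 0.17 (SE 0.08, adjusted p = 0.316). In the same test, markers were called higher for 2 of 6 in microglia, 1 of 6 in endothelium, 2 of 5 in red blood cells, 2 of 7 in cycling cells, 3 of 6 in lens and 2 of 5 in retinal pigment epithelium, and lower for 4 of 5 in oligodendrocytes and 2 of 6 in nuclear transcripts. DESeq2 called 0 genes of the endothelium, red blood cell, lens and nuclear transcript lists, and genes of each of the other lists. Their part was not tested.

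The comparisons between genotypes use the same libraries as those of OIR, so they are not independent of them. Between the genotypes in normoxia, Hist1h2bc was lower in the libraries labelled Casp1 KO, 0.771-fold, with a log2 fold change of -0.37 (SE 0.11, adjusted p = 0.0463 by edgeR). It was 1 of 28 members tested, or 3.57%, against 1.04% of all genes. The call was close to the threshold: it was lost without WT normoxia replicate 1 or 2 and without any of the Casp1 KO normoxia libraries, with adjusted p by edgeR of 0.084 to 0.297. It was also lost with both other scalings, the likelihood ratio test, both stricter filters, the replicate block (adjusted p = 0.0893) and all 12 libraries in one fit (0.227). Hist1h4d had the largest difference of the 4 leading members, -0.87 (SE 0.28, adjusted p = 0.106), without overlap between the groups, and it passed the threshold with DESeq2 (log2 fold change -0.86, adjusted p = 0.0205). Of the 28, 10 had a fitted change above 0, against 50.6% of all genes. By class these were 1 of 5 H1, 5 of 7 H2A, 2 of 7 H2B, 1 of 1 H3 and 1 of 8 H4 members tested. An unadjusted p under 0.05 by edgeR was found for 2 of the 8 H4 members. Groups did not overlap for 5 of the 28 members, against 12.4% of all genes. Hist1h1e did not separate the genotypes in normoxia, with -0.06 (SE 0.08, adjusted p = 0.833). Oligodendrocyte markers were called lower for 5 of 5 in this comparison, at 191 to 241 CPM in WT normoxia and 22.97 to 26.7 in Casp1 KO normoxia. Nuclear transcripts were called higher for 3 of 6, at 9859 to 10363 and 10897 to 11939 CPM. Their part was not tested.

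Between the genotypes in OIR, both leading linker histones were lower in the libraries labelled Casp1 KO. Hist1h1e was at 286 ± 30.8 CPM against 499 ± 112 in WT OIR, 0.573-fold, with a log2 fold change of -0.80 (SE 0.13, adjusted p = 3.49e-07 by edgeR). Hist1h1c was at 31.8 ± 8.20 against 53.4 ± 8.38 CPM, 0.595-fold, with -0.75 (SE 0.20, adjusted p = 0.0346). These were 2 of 29 members, or 6.90%, against 0.575% of all genes, and 4 members had groups that did not overlap, against 11.9% of all genes. Hist1h1d, a further linker histone at 0.655 ± 0.596 against 3.36 ± 0.401 CPM, also had groups that did not overlap and did not pass the test (adjusted p = 0.37). Of the 29 members, 9 had a fitted change above 0, against 46.6% of all genes, and the median was -0.28 against -0.04 over all genes.

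The 2 calls in OIR differed in how far they held. Hist1h1e was called without each of the 6 libraries in turn, with log2 fold changes from -0.98 to -0.68. It was not called after filtering with filterByExpr (adjusted p = 0.0551), under which 16 of 13435 genes passed in all. WT OIR replicate 3 weighed on the whole comparison: without it, 815 genes were called, against 131 with it, and Hist1h1e had -0.68 (adjusted p = 2.12e-08 by edgeR). Hist1h1c was not called without WT OIR replicate 2 (adjusted p = 0.129 by edgeR) or 3 (0.0827), or without Casp1 KO OIR replicate 2 (0.439) or 3 (0.241). Its call held in only 6 of 11 other settings, with adjusted p up to 0.236 by edgeR or DESeq2. Hist1h2bc had -0.28 (SE 0.14, adjusted p = 0.562), and Hist1h4d -0.62 (SE 0.30, adjusted p = 0.543). By edgeR, nuclear transcripts were called lower for 4 of 6 in this comparison, red blood cell markers for 3 of 5 and endothelium markers for 1 of 6. Lens markers were called higher for 4 of 6 and retinal pigment epithelium markers for 3 of 5. DESeq2 called 1 nuclear transcript lower, 2 lens and 2 retinal pigment epithelium markers higher, and 0 red blood cell and 0 endothelium markers. The part of these lists in the result was not tested.

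**Figure D5:**
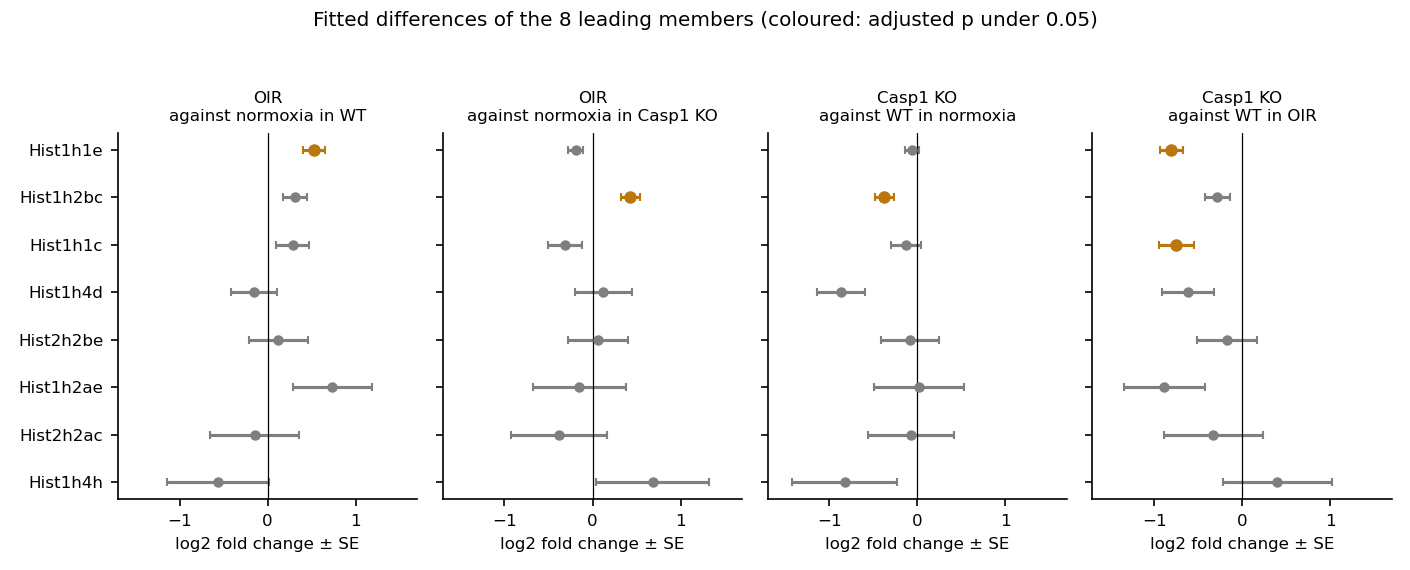
Fitted log2 fold change and SE of the 8 members with the highest mean CPM in the 4 comparisons of 2 groups (6 libraries each); coloured points had an adjusted p under 0.05. Hist1h1e was called in WT OIR against normoxia and in OIR between the genotypes, Hist1h2bc in Casp1 KO OIR against normoxia and between the genotypes in normoxia, and Hist1h1c in OIR between the genotypes.

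The other 26 members were not called by edgeR in any of the 6 tests. Among them, the lowest unadjusted p was 0.00165, for Hist1h4d in normoxia. No H2A, H3 or H4 member was called, at most 1, 1 and 2 of them had an unadjusted p under 0.05 in a test, and DESeq2 called 1, Hist1h4d. Over all members, an unadjusted p under 0.05 was found for 2 in WT OIR (12.6% of all genes), 3 in Casp1 KO OIR (13.6%), 3 between the genotypes in normoxia (8.63%), 6 in OIR (8.36%), 2 in the interaction (9.77%) and 3 in OIR over both genotypes (14.2%). The SE of the fold change grew as reads fell, from 0.12 for Hist1h1e in the WT comparison to 0.58 for Hist1h4h and 2.698 for Hist1h3a, so a change of the size seen in Hist1h1e was not detectable for members with so few reads.

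Genes around histone supply are given by list, and over all genes 0.575% to 4.89% were called in a test. Replication-independent histone genes mostly have ordinary polyadenylated messages and replace histones outside S phase, but H2afx, which is in the list, carries the stem-loop. In this list 13 of 14 genes had reads and 2 were called in any test, both higher. H2afv, a gene of the H2A.Z variant, rose in OIR in Casp1 KO (log2 fold change 0.52, SE 0.08, adjusted p = 1.14e-08 by edgeR), also without each library. In WT it was called (0.42, SE 0.12, adjusted p = 0.0237), but its level was 335, 370 and 583 CPM in WT OIR and 306 to 336 in WT normoxia. Without WT OIR replicate 3 the value was 0.14 (adjusted p = 0.621), and without each WT normoxia library in turn the call was also lost (adjusted p of 0.0658 to 0.198). H3f3b, which encodes H3.3, was called higher in OIR in WT (0.37, SE 0.12, adjusted p = 0.0447), with 605, 721 and 1076 CPM in WT OIR and 589 to 662 in WT normoxia. Without WT OIR replicate 3 the value was 0.10 (adjusted p = 0.695), and without WT normoxia replicate 1, 2 or 3 the adjusted p was 0.263, 0.253 and 0.114. H3f3b was also called higher in Casp1 KO than in WT in normoxia (0.28, SE 0.07, adjusted p = 0.0104), which was lost without WT normoxia replicate 1 (0.0516) or 2 (0.0677) and without Casp1 KO normoxia replicate 2 (0.195) or 3 (0.063). Its level of 617 to 826 CPM as group means was far above the 2 H3 members, which summed to at most 1.31 CPM in a library. For OIR in WT, DESeq2 called neither H2afv nor H3f3b.

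Of 15 measured genes for the end processing of histone messages, 1 was called, lower in 2 tests. Xpo1, a nuclear export receptor, was lower in OIR in Casp1 KO (-0.38, SE 0.11, adjusted p = 0.0227 by edgeR) and lower in Casp1 KO than in WT in OIR (-0.73, SE 0.15, adjusted p = 0.00035). For Xpo1 the first call was lost without Casp1 KO normoxia replicate 2 (adjusted p = 0.0932) or 3 (0.359) or Casp1 KO OIR replicate 2 (0.17), and the other without Casp1 KO OIR replicate 2 (0.0608). Slbp, the stem-loop binding protein, was at 1.21 to 6.61 CPM and was not called. Of 18 measured genes of cleavage and polyadenylation, 1 was called. Pabpc1, a poly(A)-binding protein, was higher in OIR in Casp1 KO (0.33, SE 0.07, adjusted p = 7.82e-05) and higher in Casp1 KO than in WT in normoxia (0.38, SE 0.07, adjusted p = 1.29e-05). Without Casp1 KO OIR replicate 3 the OIR value of Pabpc1 was 0.18 (adjusted p = 0.171). For OIR in Casp1 KO, DESeq2 called neither Xpo1 nor Pabpc1.

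Of 15 genes of histone chaperones and their partners, 3 were called. Fam111a, a protease that acts in DNA replication, was higher in WT OIR (log2 fold change 2.66, SE 0.72, adjusted p = 0.00946 by edgeR) on 13, 1 and 4 reads in WT normoxia and 15, 35 and 43 in WT OIR. It was not called without WT normoxia replicate 2 (1.87, adjusted p = 0.138), WT OIR replicate 2 (0.0722) or WT OIR replicate 3 (0.0865). In Casp1 KO OIR, Daxx was higher (0.41, SE 0.13, adjusted p = 0.0293) and Atrx lower (-0.25, SE 0.07, adjusted p = 0.0185), partners that place H3.3 in heterochromatin. Daxx was not called without Casp1 KO normoxia replicate 1 (0.23, adjusted p = 0.588) or without Casp1 KO OIR replicate 1 (0.123), 2 (0.0772) or 3 (0.073), and Atrx not without Casp1 KO normoxia replicate 1 (0.268) or 3 (0.0562). DESeq2 called neither Fam111a in WT OIR nor Daxx in Casp1 KO OIR. Of 28 genes of S phase and DNA replication, edgeR called 0 in each of the 6 tests, 2 to 4 had an unadjusted p under 0.05, and DESeq2 called 0. Pola1, a subunit of the polymerase that primes replication, was at group means of 65.2 to 82.8 CPM, Dut, which removes dUTP, at 56.8 to 67.2, and Lig1, the replicative DNA ligase, at 47.7 to 61.2. The cycling-cell gene Top2a was called higher in OIR, in WT (3.26, SE 0.45, adjusted p = 3.61e-10) and in Casp1 KO (1.75, SE 0.51, adjusted p = 0.0178). The WT call of Top2a held without each library, and the other was lost without Casp1 KO normoxia replicate 3 (adjusted p = 0.116) or Casp1 KO OIR replicate 1 (0.131).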

How the data were processed

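The authors prepared QuantSeq 3′ mRNA-Seq FWD libraries from total retinal RNA, sequenced 75-base reads, aligned them to mm10 with STAR and counted reads per gene with htseq-count; the submitters' processing notes name STAR 2.7.5a, HTSeq 0.6.1 and edgeR. The deposited table holds raw counts per gene symbol. The annotation, strand setting and handling of multiply matching reads are not given in the sources used here. Groups came from the sample labels. The members and gene lists were chosen with earlier results of these data known.

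Counts were fitted in R 4.3.3 with edgeR 4.0.16 (TMM, genes with at least 1 count, quasi-likelihood test, prior count 0.125) and adjusted by Benjamini-Hochberg over all genes tested, with a threshold of 0.05. Each pair of groups was fitted to its 6 libraries, and the interaction and the common OIR effect to all 12. In these fits the prior degrees of freedom were infinite, so no gene had a spread of its own; with filterByExpr they were 12.7 to 37.5. Each SE was back-calculated, as the size of the fold change over the root of its F. The code was tested on simulated data. The alternatives were other normalizations, filters and tests (DESeq2 1.42.0 among them), a replicate block, a thinned deep library and leaving out each library. Named in full were Hist1h1e, the 8 members with the highest mean CPM, the top member of each class, members called in any fit, and up to 3 genes of each list. Positions come from GENCODE vM21 and promoters from RefSeq, GRCm38.p6.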

Additional observations from a re-analysis of the deposited data

Results flagged for a closer look

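The change of Hist1h1e in OIR differed between the genotypes by the interaction test, with a log2 difference of -0.74 (libraries labelled Casp1 KO minus WT; SE 0.15, adjusted p = 0.000426 by edgeR's quasi-likelihood test). The change was 0.52 in WT and -0.19 in the libraries labelled Casp1 KO. In the same test, 4 of the 6 nuclear transcripts differed, each in the same direction as Hist1h1e. DESeq2 called 1 of these 6, and it called Hist1h1e.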

How the results depend on the processing

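The single calls over both genotypes (Hist1h2bc) and in the interaction (Hist1h1e) were made under every alternative tried. In WT and in Casp1 KO the 1 member called in OIR stayed at 1 under every alternative except leave-one-out, where counts ran from 0 to 1. For Casp1 KO against WT in normoxia, the count of 1 became 0 with DESeq2 size factors, library size alone, the likelihood ratio test, filterByExpr, filterByExpr with robust estimation (added after seeing the data), at least 10 counts in every library, the replicate block and all 12 libraries in one fit, became 2 with DESeq2, and ran from 0 to 1 without each library; without Casp1 KO normoxia replicate 2 the 1 call was Hist1h4c, not Hist1h2bc. Same-numbered libraries did not deviate together (correlations -0.05 to 0.07), so the numbers were not taken as pairs. Under the replicate block Hist1h2bc had an adjusted p of 0.0893 by edgeR; the block changed no other count. For Casp1 KO against WT in OIR, the count of 2 became 1 with DESeq2, the likelihood ratio test, at least 10 counts in every library and filterByExpr with robust estimation. In these settings Hist1h1e was kept and Hist1h1c lost. The count became 0 with filterByExpr, and ran from 1 to 2 without each library. The log2 fold change of Hist1h2bc in the interaction changed sign without WT OIR replicate 1, within -0.0037 to 0.26 over the libraries left out. The log2 ratio of the summed CPM of all members was 0.41 in WT (0.29 to 0.55 without each library), -0.03 in Casp1 KO (-0.08 to 0.03), -0.19 between the genotypes in normoxia (-0.23 to -0.14) and -0.63 in OIR (-0.76 to -0.51). Without Hist1h1e, they became 0.24, 0.20, -0.35 and -0.39. Over all genes, the calls in OIR between the genotypes numbered 131, and 82 with DESeq2, 54 with the likelihood ratio test, 16 with filterByExpr, 17 with at least 10 counts in every library, 17 with filterByExpr with robust estimation, 126 with robust estimation alone, 255 with all 12 libraries and 47 to 815 without each library. In normoxia they numbered 233, and 444 with DESeq2, 148 with the likelihood ratio test and 109 with all 12 libraries. With all 12 libraries OIR in Casp1 KO gave 642 against 1038, filterByExpr gave 586 against 886 in WT, and the interaction gave 139 to 181 against 277 with filterByExpr, at least 10 counts and the likelihood ratio test, and 174 to 597 without each library, the highest without WT OIR replicate 3. Leaving out each library was added for the other genes named after seeing the data. The cause of these changes was not tested. Depth limits all members but the leading 5, which alone had 10 reads in every library.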
